A study of Rattus norvegicus with 6 samples.

Results

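The EGF family ligands and their ErbB receptors were followed here through 8 genes, taken by symbol from the deposited gene count table of 30498 genes. They are the ligand genes Nrg1, Hbegf, Ereg, Areg and Tgfa and the receptor genes Egfr, Erbb2 and Erbb3, and all 8 were found in the table. RNA was sequenced from 6 libraries of cultured wild-type rat mesenchymal stem cells, 3 of cranial bone marrow (rcMSC) and 3 of femur and tibia marrow (rbMSC). The series concerns cranial MSC given in spinal cord injury, and the comparison it names is that of the 2 kinds of culture. The labels give no strain, age or passage and do not state whether replicates were separate animals or cultures, so p-values cover the spread among libraries, which may be technical.

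Ligands of this family are made as membrane-anchored precursors and are released by cell surface proteases. The EGF-like part of the ligand binds ErbB receptor tyrosine kinases, which pair with each other and signal through RAS, ERK and PI3-kinase. HB-EGF (Hbegf), TGF-alpha (Tgfa), amphiregulin (Areg) and epiregulin (Ereg) act on EGFR, and HB-EGF and epiregulin also on ErbB4. Neuregulin-1 (Nrg1) binds ErbB3 and ErbB4 and is best known for its action on Schwann cells, oligodendrocytes and heart muscle. ErbB2 has no known ligand of its own and serves as the partner of the other receptors, while ErbB3 has little kinase activity and signals by pairing. In bone marrow stroma, EGFR ligands are known as growth signals.

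Transcripts of the 3 abundant ligands were lower in rcMSC than in rbMSC, to 31.6% of the rbMSC level for Tgfa, 34.9% for Hbegf and 55.8% for Nrg1. Ereg, a scarce transcript that passed the low-count filter through its rcMSC libraries alone, was 5.07-fold higher in rcMSC. The 3 receptor genes Egfr, Erbb2 and Erbb3 had similar mean levels in the 2 groups and did not pass the test. Erbb4, a receptor gene outside the 8, was lower in rcMSC (log2 fold change -3.38). It passed the low-count filter through its rbMSC libraries alone. Of the 8 genes, 1 was thus higher and 3 were lower, 3 did not pass the threshold and Areg had too few counts to be tested. The test was edgeR's quasi-likelihood test with an adjusted p under 0.05, by which 45.8% of 14836 genes were called, 22.6% higher and 23.2% lower in rcMSC, so a call alone was common in this comparison. A fall of at least 2-fold, as for Tgfa and Hbegf, was called for 8.53% of the genes tested.

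Total counts ranged from 21340290 to 26928079 per library. The library rcMSC replicate 3 stood apart from the other rcMSC libraries: over genes, its counts differed from theirs by a chi-square of 42 and 42.8 per degree of freedom, against 2.69 to 3.16 for the other pairs within a group. Results are therefore also given without it where they move. The 12 mesenchymal markers were present in both groups, and 5 of them were higher and 7 lower in rcMSC. Their summed level was 48900 to 49200 CPM (counts scaled to library size, TMM) in rbMSC and 69900 to 86600 in rcMSC. Most of this sum came from the collagen genes Col1a1, Col1a2 and Col3a1, which were higher in rcMSC. Thy1, Nt5e and Pdgfrb were among the lower ones. Markers of macrophages, which marrow cultures can carry over and which can express several EGF family ligands, were present in both groups and had a lower summed level in rcMSC, as had Tgfa, Hbegf and Nrg1. Their summed level over 14 genes was 1090 CPM in each rbMSC library and 679 to 700 CPM in the rcMSC libraries, and edgeR called 8 of the 13 tested lower, while the other 5 did not pass. None of the 14 was at 0. Ptprc (CD45) had a log2 fold change of -1.57, Csf1r of -1.53 and Cd68 of -0.36 (edgeR adjusted p = 1.76e-05, 0.00295 and 0.066). Cd14 and Fcer1g had positive values, 0.19 and 0.08 (edgeR adjusted p = 0.059 and 0.59). The part of macrophages in the ligand results was not tested, and in bulk RNA a smaller number of cells of a type and less RNA per cell cannot be told apart.

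Tgfa and Hbegf, which fell most among the 8 genes, are shown by the 250 bases before their annotated start in RefSeq (build GRCr8, 5 of the 8 genes had an entry). Capitals mark matches, on either strand, to the GC box GGGCGG, the AP-1 site TGANTCA, the TATA box TATAAA or the cyclic AMP response element TGACGTCA. The Tgfa window is chr4:120175469-120175718 on the + strand and the Hbegf window chr18:28390221-28390470 on the - strand.
Tgfa: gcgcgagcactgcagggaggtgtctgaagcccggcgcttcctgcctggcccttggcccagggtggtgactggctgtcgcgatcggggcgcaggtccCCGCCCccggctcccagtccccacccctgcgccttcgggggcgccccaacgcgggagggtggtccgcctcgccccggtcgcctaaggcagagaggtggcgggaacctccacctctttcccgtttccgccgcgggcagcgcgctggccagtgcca
Hbegf: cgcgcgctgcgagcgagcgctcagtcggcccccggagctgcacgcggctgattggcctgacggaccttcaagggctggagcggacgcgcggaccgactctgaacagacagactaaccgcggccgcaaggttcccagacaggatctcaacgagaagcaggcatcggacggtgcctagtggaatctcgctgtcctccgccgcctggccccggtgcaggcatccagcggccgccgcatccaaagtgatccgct
The Tgfa window held 1 GC box, in the reverse orientation, and the Hbegf window held 0 matches to the 4 motifs. Among 33465 promoter windows of the same length, 30.5% held the GC box, 6.34% the AP-1 site, 12.9% the TATA box and 1.59% the cyclic AMP response element. Both windows were rich in G and C, at 74.4% for Tgfa and 67.6% for Hbegf, against a median of 51.2% over all windows. Egfr and Erbb2, whose levels did not pass the test, also had 1 GC box each. Areg, which had too few counts to be tested, had 1 GC box, 1 TATA box and 1 cyclic AMP response element.

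Tgfa (ENSRNOG00000016182, chromosome 4, 118618269 to 118700894 in mRatBN7.2) encodes TGF-alpha, an EGFR ligand. It had 89.3, 89.9 and 88.3 CPM in rbMSC replicates 1 to 3 and 25.1, 29.6 and 29.9 CPM in rcMSC replicates 1 to 3. The rbMSC libraries lay within a narrow band and every rcMSC library was far below it. Groups did not overlap in 57.1% of all genes tested. The group means were 89.2 ± 0.793 CPM for rbMSC and 28.2 ± 2.69 CPM for rcMSC (SD, n = 3 each). On the log2 scale the change was -1.66 with an SE of 0.08 (edgeR adjusted p = 8.06e-08).

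Hbegf (ENSRNOG00000018646, chromosome 18, 28105760 to 28116441) encodes HB-EGF, a heparin-binding ligand of EGFR and ErbB4. Its level was 76.4, 74.7 and 71.5 CPM in the rbMSC libraries and 24.6, 22.9 and 30.2 CPM in the rcMSC libraries. The groups did not overlap, and rcMSC replicate 3 was the highest of its group. The change was -1.52 on the log2 scale (SE 0.10, edgeR adjusted p = 9.85e-07), from 74.2 ± 2.51 CPM in rbMSC to 25.9 ± 3.82 in rcMSC (SD, n = 3 each). Without rcMSC replicate 3 it was -1.64.

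Nrg1 (ENSRNOG00000010392, chromosome 16, 59250854 to 60296884) encodes neuregulin-1, which binds ErbB3 and ErbB4. The rbMSC libraries had 57.0, 58.1 and 58.7 CPM, and the rcMSC libraries 28.7, 28.4 and 40.0 CPM. All rcMSC libraries were lower, and rcMSC replicate 3 lay between the other 2 and the rbMSC group. The means were 58.0 ± 0.867 CPM for rbMSC and 32.4 ± 6.61 CPM for rcMSC (SD, n = 3 each). The log2 change of -0.84 had an SE of 0.12 (edgeR adjusted p = 0.000424), and was -1.02 without rcMSC replicate 3. The gene has many transcript forms, and counts per gene do not separate the membrane-bound from the secreted ones.

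Ereg and Areg are neighbours on chromosome 14, at 17027287 to 17041062 and 16972187 to 16981535, in a group of ligand genes that also holds Btc and Epgn. Ereg (ENSRNOG00000002771), which encodes epiregulin, had 2, 4 and 5 counts in rbMSC and 25, 16 and 24 in rcMSC. Every rcMSC library was above every rbMSC library, on counts low enough that Ereg passed the low-count filter through its rcMSC libraries alone. The mean rose from 0.155 ± 0.0546 CPM to 0.82 ± 0.201 CPM (SD, n = 3 each), by 2.34 on the log2 scale with an SE of 0.45 (edgeR adjusted p = 0.00178). The ratio of summed counts, scaled for library size, was 5.17, with an exact binomial 95% interval of 2.71 to 10.9 that covers counting error only. Areg (ENSRNOG00000002754), which encodes amphiregulin, had 1, 4 and 9 counts in rbMSC and 9, 8 and 4 in rcMSC. Its groups overlapped and a difference was not detectable at this depth, with a ratio of 1.31 and a counting interval of 0.637 to 2.79.

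**Figure D1:**
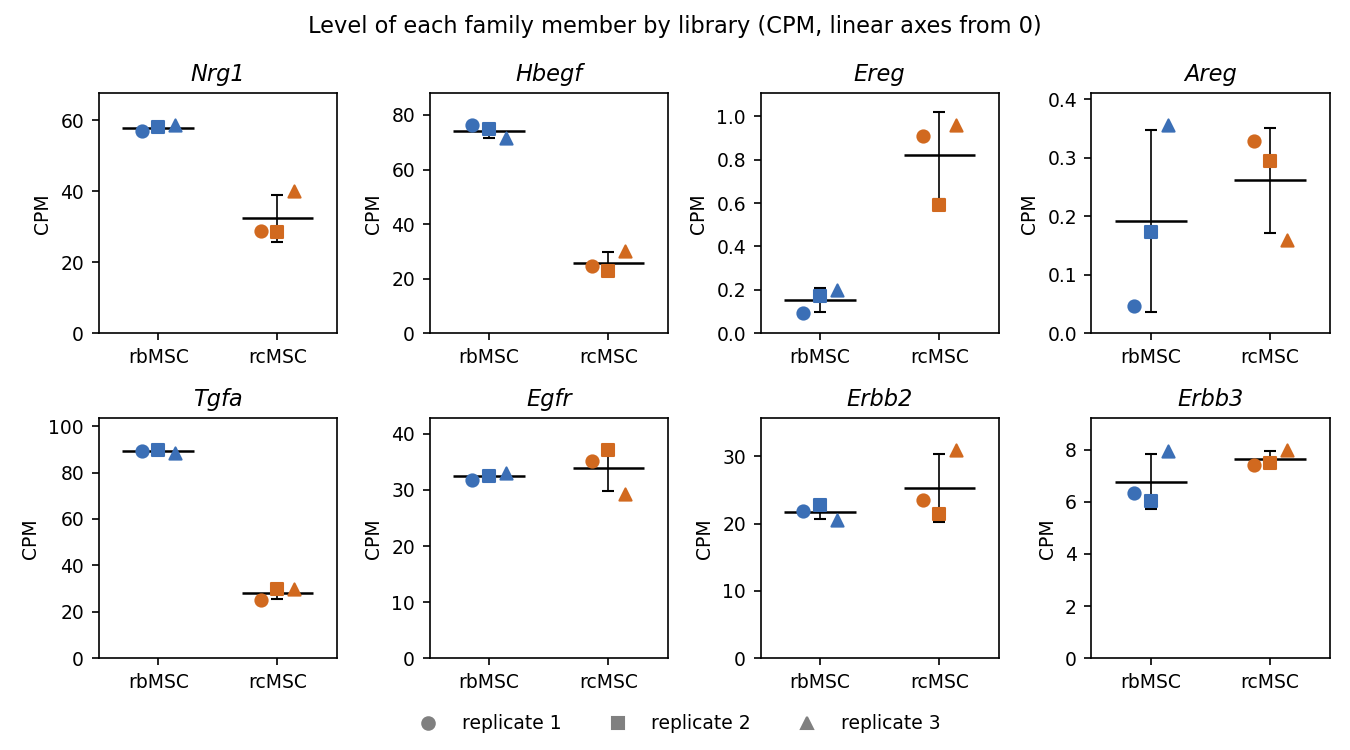
Level of each of the 8 genes in CPM after TMM scaling (y axis, linear, starting at 0 with a scale for each gene) in the 3 rbMSC and 3 rcMSC libraries. Symbols mark replicates, the long line the mean and the bar 1 SD. Tgfa, Hbegf and Nrg1 were lower in every rcMSC library and Ereg was higher in every one, on fewer than 1 CPM, while the groups overlapped for the other genes.

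The receptor transcripts were close in level in the 2 groups. Egfr (ENSRNOG00000004332, chromosome 14, 91177067 to 91344382), the receptor of EGF, TGF-alpha, HB-EGF, amphiregulin and epiregulin, had 31.8, 32.5 and 33.0 CPM in rbMSC and 35.1, 37.2 and 29.3 CPM in rcMSC. The rcMSC libraries lay on both sides of the rbMSC group. The log2 fold change was 0.06 (SE 0.09, 95% interval -0.14 to 0.27, edgeR adjusted p = 0.614), which bounds a change to between 0.905-fold and 1.2-fold. This call rested on rcMSC replicate 3: without it Egfr was higher by 0.15 and passed the threshold (edgeR adjusted p = 0.0485). Calls were more common in that fit, with 4512 genes higher and 4558 lower of 15096 tested. With all 6 libraries they were 3351 and 3445 of 14836. Without rcMSC replicate 2 the Egfr value was -0.01 (edgeR adjusted p = 0.955).

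Erbb2 (ENSRNOG00000006450, chromosome 10, 83411313 to 83435078), the ligandless partner receptor, had 21.9, 22.7 and 20.6 CPM in rbMSC and 23.5, 21.4 and 31.0 CPM in rcMSC. The first 2 rcMSC libraries were near the rbMSC level and rcMSC replicate 3 was the highest of the 6. The log2 fold change was 0.22 (SE 0.13, 95% interval -0.07 to 0.50, edgeR adjusted p = 0.2), or 0.04 without rcMSC replicate 3. Mien1, on the opposite strand, has 2 annotated exons that overlap exons of Erbb2. No source used here states the strand setting of the counting, so reads there cannot be told apart. Mien1 itself had 193 counts in rbMSC and 287 in rcMSC against 1515 and 2001 for Erbb2.

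Erbb3 (ENSRNOG00000004964, chromosome 7, 996225 to 1015525), the neuregulin receptor with little kinase activity, had 6.32, 6.01 and 7.96 CPM in rbMSC and 7.39, 7.47 and 8.0 CPM in rcMSC. The rcMSC libraries were close together and lay within or just above the wider rbMSC range. The log2 fold change was 0.17 (SE 0.14, 95% interval -0.14 to 0.48, edgeR adjusted p = 0.346). Erbb3 is a known transcript of Schwann and epithelial cells, whose defining markers were at or near 0 here. Sox10 had 1 count in each group, Foxd3 and Cdh19 had 0, and Epcam had 6 counts in rbMSC and 5 in rcMSC. Over the 10 Schwann cell markers the summed level was 170 to 176 CPM in rbMSC and 85.8 to 107 in rcMSC, most of it from Pmp22 and S100b, and of 5 tested 3 were lower. Over the 8 epithelial markers it was 5.99 to 7.56 CPM in rbMSC and 2.98 to 3.92 in rcMSC, most of it from Cdh1, and of 2 tested 1 was lower. The 9 endothelial markers summed to 18 to 21.5 CPM in rbMSC and 20.1 to 23.9 in rcMSC, with 1 higher and 1 lower of 8 tested.

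Of the 7 other genes of the family, Egf and Erbb4 had enough counts to be tested. Erbb4 (ENSRNOG00000014248, chromosome 9, 69531481 to 70596595), a receptor for neuregulins, HB-EGF and epiregulin, had 107, 94 and 93 counts in rbMSC and 5, 11 and 16 in rcMSC. Every rcMSC library was far below every rbMSC library. Erbb4 passed the low-count filter through its rbMSC libraries alone. The level fell from 4.25 ± 0.68 CPM to 0.409 ± 0.229 (SD, n = 3 each). This was -3.38 on the log2 scale with an SE of 0.34 (edgeR adjusted p = 2.24e-05), and -3.83 without rcMSC replicate 3.

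Egf itself, the founding ligand, had 2.83 ± 0.402 CPM in rbMSC and 2.63 ± 0.531 in rcMSC (SD, n = 3 each), with a log2 difference of -0.10 (95% interval -0.58 to 0.37, edgeR adjusted p = 0.72). Btc, which encodes betacellulin, an EGFR and ErbB4 ligand, had 21 counts over the rbMSC libraries and 2 over the rcMSC libraries. The rbMSC level was 12.0 times the rcMSC level, with a counting interval of 2.93 to 105. It did not pass the low-count filter, and without the filter its edgeR adjusted p was 0.0145. Epgn (epigen) had 4 counts in rbMSC and 1 in rcMSC, Nrg2 had 18 and 9, and Nrg3 had 2 and 1. Nrg4 had 0 counts in all 6 libraries, and 3 counts, taken as the limit that a count of 0 allows, would be 0.111 to 0.141 CPM in a library.

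**Figure D2:**
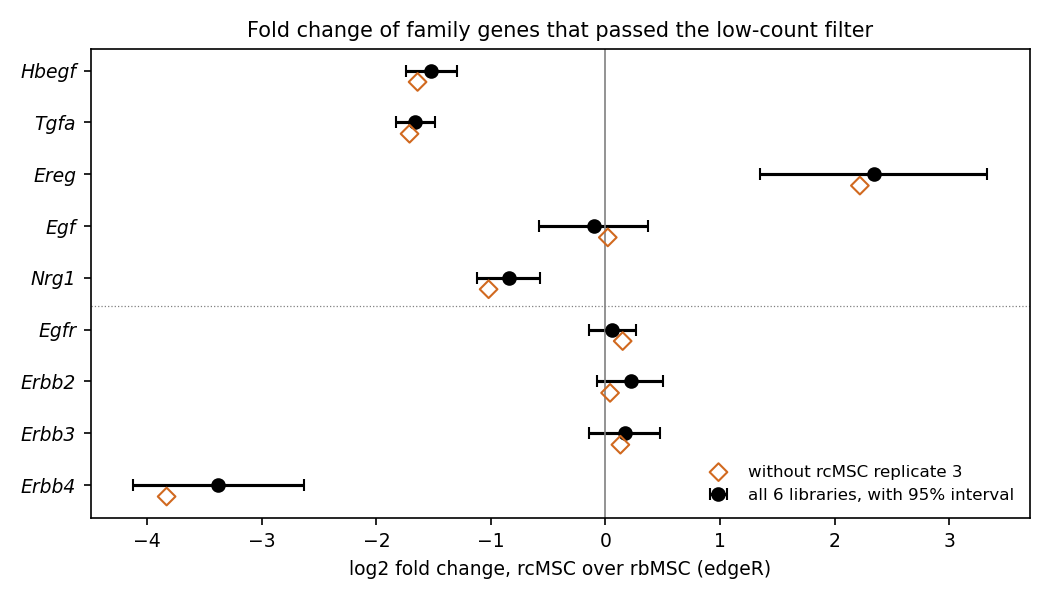
Log2 fold change of rcMSC over rbMSC (x axis, edgeR) for the 9 family genes that passed the low-count filter, ligands above the dotted line and receptors below it. Filled points are the fit of all 6 libraries with its 95% interval, and open diamonds the fit without rcMSC replicate 3. Erbb4, Tgfa, Hbegf and Nrg1 lie left of 0 and Ereg right of it in both fits, and the intervals of Egf, Egfr, Erbb2 and Erbb3 include 0.

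Levels between genes were compared as CPM per kilobase of the length that the table gives for each gene. That length covers all annotated exons and not the transcript form in use, so the order is approximate. In rbMSC the order was Hbegf (31.6 ± 1.07 CPM per kilobase, SD, n = 3), Tgfa (18.7 ± 0.166), Nrg1 (10.3 ± 0.154), Egfr (7.18 ± 0.141), Erbb2 (4.60 ± 0.222) and Erbb3 (1.57 ± 0.243), followed by Ereg and Areg, which overlapped, at 0.18 and 0.155. The first 6 genes of this order did not overlap with their neighbours. In rcMSC Hbegf again came first at 11 ± 1.63 CPM per kilobase (SD, n = 3), and Egfr came second at 7.49 ± 0.907. Tgfa (5.91 ± 0.564), Nrg1 (5.75 ± 1.17) and Erbb2 (5.35 ± 1.07) followed, with overlapping libraries. Erbb3 was at 1.77 ± 0.0761, Ereg at 0.951 ± 0.233 and Areg at 0.21 ± 0.0717 CPM per kilobase. Egfr lay below Tgfa and Nrg1 in rbMSC. In rcMSC its libraries were all above those of Tgfa and overlapped those of Nrg1.

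Added up, the 11 ligand genes had 62.7, 62.2 and 60.7 CPM per kilobase in the rbMSC libraries and 22.8, 22.6 and 28.0 in the rcMSC libraries. The 4 receptor genes summed to 14.2, 14.2 and 14.3 CPM per kilobase in rbMSC and to 14.5, 14.6 and 15.0 in rcMSC. The ligand sum was therefore lower in every rcMSC library and the receptor sum nearly level across the 6. Hbegf was the largest part of the ligand sum in both groups, at 51.1% ± 0.902 in rbMSC and 45% ± 1.59 in rcMSC (SD, n = 3 each). Tgfa made up 30.2% ± 0.325 and 24.3% ± 2.73, and Nrg1 16.6% ± 0.512 and 23.3% ± 1.72. Ereg made up 0.291% ± 0.106 in rbMSC and 3.88% ± 0.813 in rcMSC. Of the receptor sum, Egfr was 50.4% ± 0.799 in rbMSC and 51.1% ± 7.05 in rcMSC, and Erbb4 was 6.27% ± 1.03 and 0.58% ± 0.315. In rcMSC replicate 3, Egfr (43.1%) and Erbb2 (43.7%) had nearly equal shares, whereas Egfr was ahead in the other 5 libraries. These sums and shares are descriptions and were not tested.

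**Figure D3:**
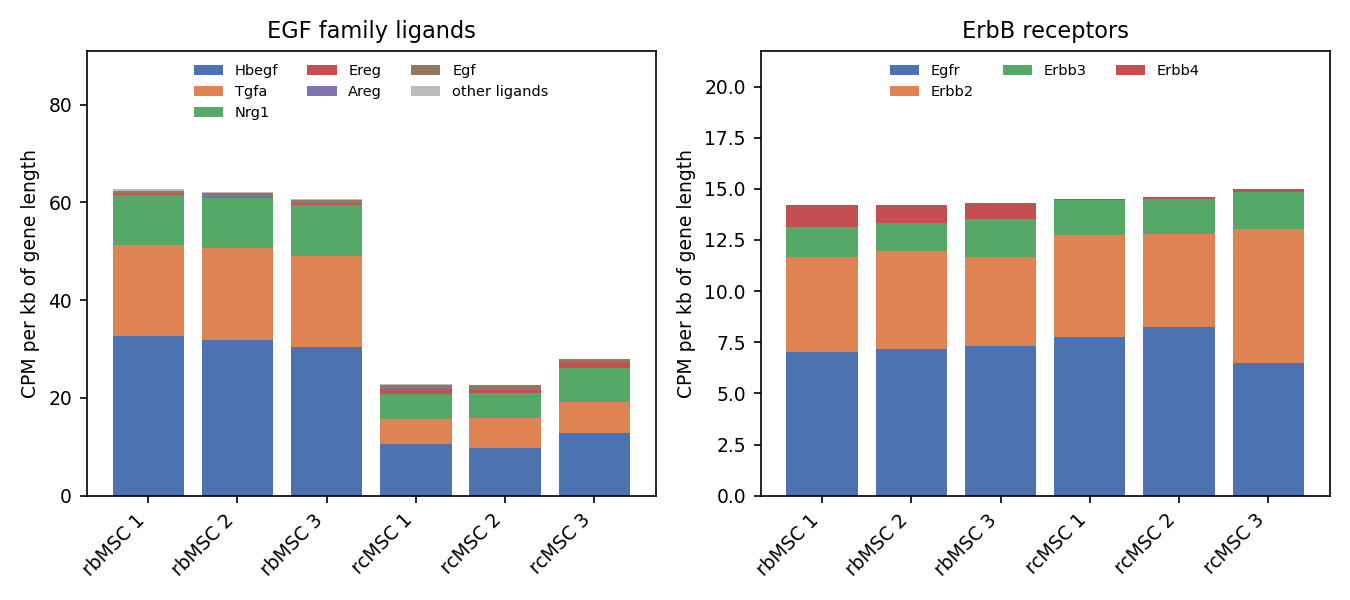
Stacked bars of the level of ligand genes (left) and receptor genes (right) in each library, in CPM per kilobase of gene length (y axes from 0, with different scales). The ligand bars are 60.7 to 62.7 high in rbMSC and 22.6 to 28.0 in rcMSC, and the receptor bars 14.2 to 15.0 in all libraries, with the Erbb4 part at the top nearly gone in rcMSC.

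The genes whose pattern over the 6 libraries was most like that of Tgfa were Filip1l, Tbxas1 and Mpeg1, out of 13039 genes with a symbol. Likeness was the root mean square difference of log2 CPM after centring each gene on its own mean, and was 0.0502, 0.0577 and 0.0713. For Ereg they were Igf2bp1, Jph1 and Fbln1, at 0.169, 0.192 and 0.201. The log2 fold changes were -1.74, -1.71 and -1.72 for the genes most like Tgfa and 2.21, 1.90 and 1.94 for those most like Ereg. Likeness was scored over the same 6 libraries, so fold changes similar to that of the member follow from the choice.

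Genes that release or traffic the ligands moved both ways, with more of them lower in rcMSC. Of 16 tested with edgeR, 2 were higher, 8 lower and 6 did not pass, with a median log2 fold change of -0.17, against 0.015 over all genes and 45.8% called. Adam17, the protease that releases TGF-alpha, HB-EGF, amphiregulin and epiregulin, was at -0.32 (edgeR adjusted p = 0.0168), and Adam10 at -0.03 (edgeR adjusted p = 0.735). Rhbdf2 (iRhom2), which carries ADAM17 to the cell surface, fell from 12.2 ± 2.11 to 6.58 ± 0.304 CPM (SD, n = 3 each; log2 fold change -0.89, edgeR adjusted p = 0.000524). Furin, a convertase that activates ADAM proteases, fell by 0.76 on the log2 scale, and the aspartyl protease Bace2 had a log2 fold change of -0.97. Timp3, the tissue inhibitor that acts on ADAM17, rose from 42.2 ± 1.70 to 86.5 ± 7.78 CPM (SD, n = 3 each; log2 fold change 1.04, edgeR adjusted p = 2.54e-06). Cd9, a tetraspanin partner of membrane-bound HB-EGF, was at 0.46 (edgeR adjusted p = 0.00316). The count of lower genes was 5 when replicate 1 or 2 of either group was left out. It was 6 without rbMSC replicate 3 and 11 without rcMSC replicate 3. Over all genes, 3445 were lower with all 6 libraries and 4558 without rcMSC replicate 3. Leaving out any other library gave 2794 to 2913 lower over all genes, so the count moved with the calls in general.

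Most adaptors and effectors that carry the receptor signal did not pass the test in the fit of all 6 libraries. Of 28 tested with edgeR, 4 were higher, 6 lower and 18 did not pass, with a median of -0.08, and 35.7% were called against 45.8% of all genes. The kinase gene Mapk7 (ERK5) rose by 0.70 on the log2 scale, from 25.8 ± 0.591 to 41.8 ± 0.291 CPM (SD, n = 3 each). Map2k2 (MEK2) and the adaptor Nck1 rose by 0.48 and 0.43, and the exchange factor Vav2 had a log2 fold change of -0.54. Grb2, the adaptor that links receptors to RAS, was at -0.04 (edgeR adjusted p = 0.615). Without rcMSC replicate 3, 6 genes of the list were higher and 11 lower. Over all 15096 genes tested in that fit, 4512 were higher and 4558 lower.

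Inhibitors of the receptors and genes of their degradation were lower more often than higher. Of 26 tested with edgeR, 12 were lower, 5 higher and 9 did not pass, with a median of -0.19. Over all genes tested, 23.2% were lower and 22.6% higher. Spry4 (Sprouty4), a feedback inhibitor of ERK signalling, had 75.7, 78.7 and 70.7 CPM in rbMSC and 14.5, 14.3 and 14.2 in rcMSC. All rcMSC libraries were near one value, far below the rbMSC group (log2 fold change -2.39, SE 0.07, edgeR adjusted p = 3.92e-09). Errfi1 (MIG6), a direct inhibitor of the EGFR kinase, had 18, 19.9 and 21.1 CPM in rbMSC and 7.76, 8.36 and 6.0 in rcMSC. Every rcMSC library was lower (log2 fold change -1.41, SE 0.13, edgeR adjusted p = 1.44e-05). Ptprj, a receptor-type phosphatase, fell by 0.95 on the log2 scale, and Cbl and Cblb, ubiquitin ligases that send EGFR to degradation, were at -0.74 and -0.69 (edgeR adjusted p = 3.74e-06 and 0.000108). Socs3, an inhibitor of cytokine receptor signalling, rose by 0.92 (edgeR adjusted p = 0.00313). The leucine-rich repeat proteins Lrig1 (-0.26, edgeR adjusted p = 0.072) and Lrig3 (0.10, edgeR adjusted p = 0.212) did not pass. The count of higher genes was 1 without rbMSC replicate 1 or 3, and 2 without rbMSC replicate 2 or rcMSC replicate 2. It was 3 with total counts as the only scaling or with the replicate block, and 4 without rcMSC replicate 1. It was 6 without rcMSC replicate 3, with voom or with the gene length trend removed. Over all genes, 3351 were higher with all 6 libraries and 4512 without rcMSC replicate 3. Leaving out any other library gave 2542 to 2698 higher over all genes.

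Transcripts that are known to be induced by ERK signalling, downstream of ErbB and of many other receptors, were mostly lower in rcMSC. Of 20 tested with edgeR, 16 were lower, 2 higher (Myc and Ier3, by 0.64 and 0.26) and 2 did not pass (Jun and Dusp5), with a median of -0.81, where 23.2% of all genes were lower and 22.6% higher. Earlier results of these data had shown several of this list to be lower, so the count is no independent evidence of a direction. Dusp6, a phosphatase that inactivates ERK, had 68.2, 73.4 and 70.9 CPM in rbMSC and 26.9, 23.9 and 24.6 in rcMSC. The groups were far apart (log2 fold change -1.50, SE 0.07, edgeR adjusted p = 1.03e-07). Fos, Egr3 and Fosb, all factors of the immediate early response, had log2 fold changes of -1.40, -1.70 and -3.18, and Fosb was at -3.77 without rcMSC replicate 3. Leaving out any library except rcMSC replicate 3 left 1 higher gene in this list, as did total counts as the only scaling, removal of the gene length trend or the replicate block.

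**Figure D4:**
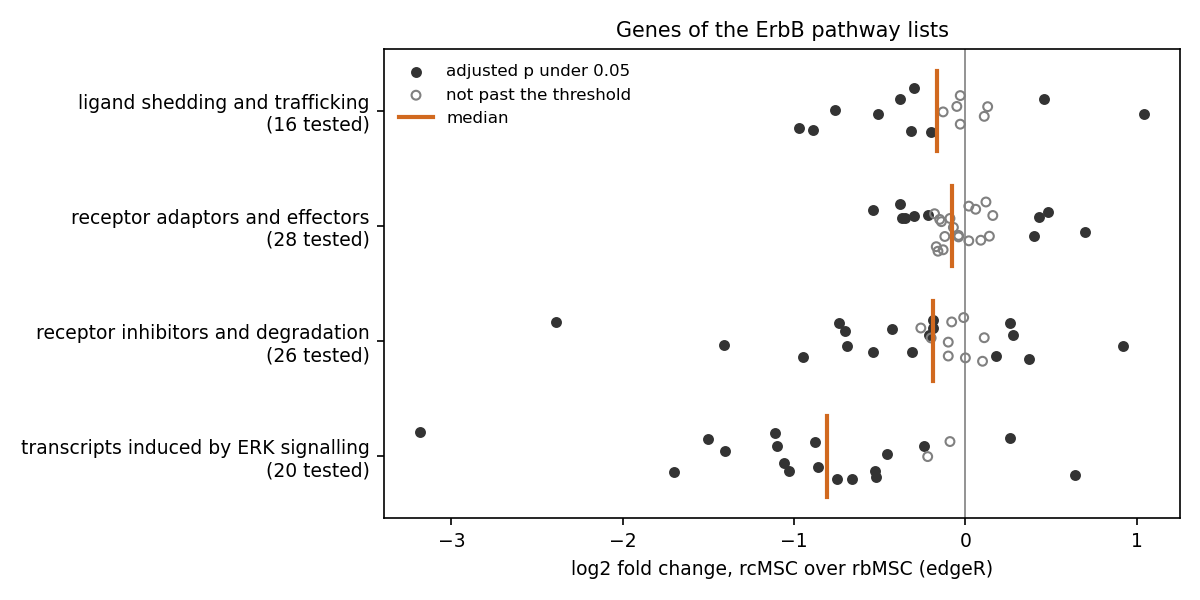
Log2 fold change of rcMSC over rbMSC (x axis, edgeR) for the genes of 4 lists of the ErbB pathway, 1 point a gene, filled where the adjusted p was under 0.05, with the list median as a bar. The medians are -0.17, -0.08, -0.19 and -0.81 from top to bottom, and the vertical scatter within a list has no meaning.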

How the data were processed

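RNA of cultured rat cells was sequenced in 6 libraries, 3 rcMSC and 3 rbMSC by title, as paired reads of 150 nt. Trimming used Trim Galore 0.6.7 and Trimmomatic 0.39, mapping to mRatBN7.2 used STAR 2.7.9a, and counting used featureCounts 2.0.1, per the labels' protocols. The submitters' processing notes also name DESeq2 1.20.0. No source used here states the strand setting, the treatment of multimapping reads or the annotation release. The authors deposited raw gene counts. Gene length, a further column per the file headers, was used for levels per kilobase and a length trend.

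rcMSC was tested against rbMSC with edgeR 4.0.16 (R 4.3.3; quasi-likelihood, TMM, filterByExpr, robust dispersion, Benjamini-Hochberg over 14836 genes, threshold 0.05). SE is the log2 fold change over the square root of F. Intervals on count ratios are exact binomial and cover counting error only. One count was worth 0.0371 to 0.0469 CPM. The test was checked on simulated counts.

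The genes, lists and naming rule were chosen with earlier results of these data known. All 8 genes and the other family genes were named, as were the 4 largest called changes of each pathway list with mean log2 CPM not under 0. Other pathway genes and the markers given singly were chosen after their values were seen. Alternatives were other scalings and filters, DESeq2 1.42.0, limma voom 3.58.1, dispersion without robust estimation, removal of the length trend, the replicate block and leaving out each library.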

Additional observations from a re-analysis of the deposited data

How the results depend on the processing

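The falls of Tgfa (-1.71 to -1.57), Hbegf (-1.64 to -1.43) and Nrg1 (-1.02 to -0.74) and of Erbb4 (-3.83 to -3.02) kept their direction and stayed past the threshold in all 16 alternatives, with adjusted p of at most 8.56e-06, 5.01e-05, 0.00349 and 0.00044. Ereg kept its call in the 15 alternatives that tested it (2.07 to 2.56, adjusted p at most 0.0121). These alternatives drew on the same low counts, so their agreement is no independent support. In the main fit Ereg passed the low-count filter through its rcMSC libraries alone, and Erbb4 through its rbMSC libraries alone. A filter of at least 1 CPM in 3 libraries removed Ereg, so that 0 of the 8 genes were higher. Without 1 library the number of the 8 genes that were higher ranged from 1 to 2. Egfr ranged from -0.01 (reversed, without rcMSC replicate 2) to 0.15 without 1 library, and its adjusted p without rcMSC replicate 3 was 0.0485. Egf ranged from -0.27 to 0.02, and was 0.02 without rcMSC replicate 3. Erbb2 and Erbb3 did not pass in any of the 16. Voom called 11 lower genes among adaptors and effectors. Over all genes, the calls without 1 library ranged from 2542 to 4512 higher and 2794 to 4558 lower. Voom called 4383 higher and 4371 lower.

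Deviations from the group means of same-numbered libraries correlated at -0.0275, 0.018 and -0.0518, which gave no sign of a pairing by replicate number. With 3 libraries a group and rcMSC replicate 3 apart from the others, these values cannot exclude a pairing. With the replicate block, 3046 genes were higher and 3251 lower, and the log2 fold changes were -1.66 for Tgfa, -1.53 for Hbegf, -0.86 for Nrg1 and 2.35 for Ereg. The block changed no call among the 8 genes. Within each group, the order of the 8 genes by CPM per kilobase was unchanged with total counts as the only scaling. Depth limits Areg, Ereg, Btc, Epgn and the neuregulin genes Nrg2, Nrg3 and Nrg4, which had 0 to 65 counts per group.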
